A study of Mus musculus with 6 samples.

Results

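The probes described here read long intergenic non-coding RNA (lincRNA) regions that lie close to a protein-coding gene. They are the array probes named for a genome region and a strand (forward or reverse) whose position is at most 10 kb from the nearest probe of a coding RefSeq transcript on the same chromosome of the mouse build mm9. The rule used position only. It kept 3420 of the 16181 lincRNA probes (21.1%) and of the 55681 probes of all kinds on the array. The 3420 members read 998 transcripts, meaning 1 strand of 1 region, in 780 regions, and 218 regions carry members on both strands. Their nearest coding probes, called neighbours here, belong to 516 genes. The median distance to the neighbour was 4208.5 bp, the farthest member lay at 9993 bp, and the nearest lincRNA probe left out lay at 10013 bp. Members of 1 transcript share their target, so they are repeat readings of it and not separate observations.

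The arrays compared C57BL/6 mouse embryos at stage E11.5 that carried an EGFP knock-in at Sox9, the regulator that marks the skeletal progenitors of the limb. Mesenchymal cells of the forelimb autopod, the future hand, were sorted by EGFP fluorescence into Sox9-EGFP positive cells (3 samples) and Sox9-EGFP negative cells (3 samples), and about 10 autopods were pooled per sample. Both groups carry the same reporter allele, and the reporter is driven by Sox9 itself, so the groups differ by Sox9 expression and by everything that goes with it. Levels below are log2 signals minus each array's 75th percentile, and differences are Sox9-EGFP positive minus Sox9-EGFP negative on that scale with their standard error (SE) from limma, a linear model fitted to all tested probes.

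LincRNAs are transcripts without a long reading frame that are made by RNA polymerase II and are often capped, spliced and polyadenylated. Many start near a coding gene: some divergently, from the opposite strand beside the gene's start, some downstream of it on either strand. Transcripts named as lincRNAs on the strand of a gene just beyond its annotated end can also be unannotated ends of that gene's own transcript, and array probes do not tell these apart. Many developmental regulators have such non-coding neighbours.

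Each probe is 60 bases long. The sequences that follow are those of the members on which the results below turn, and capitals mark AATAAA, the main signal for polyadenylation. The first 3 are the divergent transcript beside Ccn1, and the last of them holds the signal. Divergent is used below for the opposite strand upstream of the neighbour's probe, since gene starts in mm9 were not used.
A_30_P01019152 (Ccn1, chr3:145314877-145314936, forward strand): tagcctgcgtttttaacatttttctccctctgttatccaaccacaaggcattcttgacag
A_30_P01018850 (Ccn1, chr3:145314937-145314996, forward strand): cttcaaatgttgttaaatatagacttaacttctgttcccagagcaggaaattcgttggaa
A_30_P01028865 (Ccn1, chr3:145314998-145315057, forward strand): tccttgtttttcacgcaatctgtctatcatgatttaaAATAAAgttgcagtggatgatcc
A pair of probes reads the divergent transcripts beside Lmx1b, and the first ends in the signal.
A_30_P01026417 (Lmx1b, chr2:33501799-33501858, forward strand): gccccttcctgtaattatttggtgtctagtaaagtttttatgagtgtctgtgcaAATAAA
A_30_P01033603 (Lmx1b, chr2:33500968-33501027, forward strand): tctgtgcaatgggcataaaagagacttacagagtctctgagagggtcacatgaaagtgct
The next members, near Cep135, Arhgef3, Ensa, Pcyt1b, Tex15, Pou3f1 and Pdss1, are shown because each is described below beside a neighbour that moved with it, did not pass the test, stayed at background or went the other way.
A_30_P01021663 (Cep135, chr5:77084913-77084972, reverse strand): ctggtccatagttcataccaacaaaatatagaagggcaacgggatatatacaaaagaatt
A_30_P01030682 (Cep135, chr5:77084839-77084898, reverse strand): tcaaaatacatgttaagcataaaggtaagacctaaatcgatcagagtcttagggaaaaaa
A_30_P01021805 (Arhgef3, chr14:28218969-28219028, reverse strand): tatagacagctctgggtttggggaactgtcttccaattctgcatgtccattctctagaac
A_30_P01029419 (Ensa, chr3:95445416-95445475, reverse strand): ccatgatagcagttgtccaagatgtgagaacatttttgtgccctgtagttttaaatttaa
A_30_P01022594 (Pcyt1b, chrX:91000519-91000578, reverse strand): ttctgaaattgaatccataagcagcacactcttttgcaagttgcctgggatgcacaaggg
A_30_P01031396 (Tex15, chr8:34675543-34675602, forward strand): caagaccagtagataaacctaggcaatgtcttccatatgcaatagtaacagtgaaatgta
A_30_P01029459 (Pou3f1, chr4:124329887-124329946, forward strand): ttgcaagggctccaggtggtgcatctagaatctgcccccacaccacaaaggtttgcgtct
A_30_P01031339 (Pdss1, chr2:22791078-22791137, reverse strand): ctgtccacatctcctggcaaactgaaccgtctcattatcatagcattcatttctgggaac
The final pair covers the same 60 bases near Fcgr1 on both strands, so each is the reverse complement of the other.
A_30_P01022407 (Fcgr1, chr3:96082796-96082855, forward strand): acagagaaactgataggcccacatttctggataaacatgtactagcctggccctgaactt
A_30_P01022918 (Fcgr1, chr3:96082796-96082855, reverse strand): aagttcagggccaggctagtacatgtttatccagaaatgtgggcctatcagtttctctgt

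AATAAA stood in 4.47% of members on the probe's strand and in 3.39% on the other strand. It stood in 8.98% of the members called different between the groups (15 probes), in 5.15% of tested members and in 3.92% of all lincRNA probes. On the other strand these shares were 4.19%, 3.59% and 3.02%. Median GC content was 43.3% in members and 45% in all lincRNA probes. A match of 6 letters is a description of the probe and not of where a transcript ends. Of the members, 29 matched a window around a RefSeq gene start (build GRCm38.p6) base for base, and 16 of these were tested.

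The Sox9 probe checked the sort. It read 3.52, 2.99 and 3.60 in the positive samples and -0.88, -1.0 and -1.13 in the negative samples, a difference of 4.37 ± 0.20 (SE; limma adjusted p = 0.00051). All 8 limb mesenchyme markers passed the background filter, 3 of them higher and 3 lower by limma. Markers of other cell types moved with the sort: Pax3 and Myog, 2 of the 4 tested muscle precursor markers, were lower in positive cells by limma, and the summed level of that list was -3.02 to -1.46 in positive and -1.19 to -0.13 in negative samples. Of its 8 markers, 3 (Pax7, Myf5 and Msc) stayed at background on all arrays. The summed level of 6 neural crest markers was 0.83 to 1.07 in positive and 3.80 to 4.02 in negative samples, with Ngfr lower, Sox10 higher and Foxd3 among 2 markers at background on all arrays. For limb ectoderm it was 4.48 to 5.21 and 3.24 to 3.56, with Krt18 and Fgf8 higher, Sp8 lower and Cdh1 and Wnt7a at background on all arrays. For endothelium it was 3.61 to 4.09 and 4.15 to 4.42, and for blood 0.56 to 2.58 and 1.19 to 5.79. Negative replicate 2 stood apart in the blood markers: Hba-a1 read 2.67 there against -0.41 and -0.85 in the other negative samples, and Csf1r 3.47 against 0.40 and -1.54. The part of these cells in the results below was not tested. In sorted samples, fewer cells of a type and less RNA per cell cannot be told apart. Positive replicate 1 stood apart in brightness: the 75th percentile of the signal was 126 there and 385 to 478 on the other arrays, and 885 members were well above background there against 1430 to 1859 elsewhere.

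Most members were dim. A member was tested where all 3 arrays of at least 1 group were well above background, and 1282 members (37.5%) in 550 transcripts were. Of these, 826 were well above background on all 6 arrays, 437 were tested through the negative group only and 19 through the positive group only, the group of the dim library. Detection differed by strand: 836 of 1659 members on the neighbour's strand were tested (50.4%), against 446 of 1761 on the opposite strand (25.3%). Members downstream on the neighbour's strand were tested most often (52.8% of 1298), and members downstream on the opposite strand least often (21.8% of 1329). Upstream members lay between, at 41.8% of 361 on the same strand and 36.1% of 432 on the opposite strand. By distance the share ran from 43.0% up to 1000 bp to 35.8% beyond 5000 bp. Where 2 members covered the same 60 bases on both strands, which was so for 20 pairs, 2 pairs were tested on both strands, 7 on the neighbour's strand only, 3 on the other strand only and 8 on neither.

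Limma called 167 members at an adjusted p under 0.05 (13%), against 21.6% of all 26473 tested probes. Of the members, 105 were higher in Sox9-EGFP positive cells (8.19%, against 7.96% of all probes) and 62 were lower (4.84%, against 13.7%). On this scaling the share of higher members was thus near the background and the share of lower members below it. The median difference over tested members was 0.10, against -0.10 over all tested probes. The split depends on the scaling: lower members made up 37.1% of the calls here, 55.9% after quantile normalization (41 higher, 52 lower), 57.1% after normexp and quantile normalization (39 higher, 52 lower) and 57.5% in the authors' series matrix (37 higher, 50 lower), and the median over members was -0.03 after quantile normalization. Of all called probes, lower ones made up 63.2% here, and 55.6%, 54.9% and 56.3% on the other scalings in the same order. There the split of the members was close to that of all probes. After quantile normalization, limma called 93 of 1282 members, against 14.3% of all tested probes. With the slide as a block, the counts of members were 130 higher and 85 lower. Without positive replicate 1, they were 130 higher and 79 lower, and without negative replicate 2 they were 44 and 27. They were 24 and 17 without negative replicate 1, 29 and 22 without negative replicate 3, 64 and 28 without positive replicate 2, and 24 and 21 without positive replicate 3. With the test limited to probes well above background on all 6 arrays, 85 members were higher and 39 lower. The arrays of the 2 groups did not overlap for 29.3% of tested members, against 43.2% of all tested probes. They did not overlap for any of the 167 called members, so each of these kept its sign within every slide.

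The 167 calls fell in 99 transcripts, 61 higher and 38 lower, and no transcript had calls in both directions. Fitted differences of at least 2-fold were seen in 39 higher and 32 lower members, and of at least 4-fold in 10. Of the 167 called members, 9 were well above background on no array of 1 group, so that their fitted difference is not a measured fold. They include 5 of the 10. Of the lincRNA probes farther from coding genes, limma called 12.4% of 2648 tested probes at 10 to 100 kb and 16.4% of 718 beyond 100 kb. Within 10 kb, 7.83% of tested members were called up to 1000 bp from the neighbour, 12.7% from there to 2500 bp, 16% from there to 5000 bp and 13.3% beyond. Calls up to 1000 bp were 5 higher and 12 lower, and calls from 2500 to 5000 bp were 43 higher and 13 lower.

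Among the members higher in Sox9-EGFP positive cells, those beside Ccn1 had large differences, and their calls held under each alternative in which they were tested. Ccn1 encodes a secreted protein of the extracellular matrix that binds integrins. Its divergent transcript (chr3:145313275-145315057, forward) is read by 3 members 4631 to 4752 bp upstream of the Ccn1 probe, and all 3 were called. A_30_P01018850 read -1.81, -1.68 and -1.61 in positive and -4.50, -4.37 and -4.40 in negative samples. The groups lay far apart, and the difference was 2.73 ± 0.12 (SE; limma adjusted p = 0.00051), 6.62-fold. Of the 3 negative arrays, 2 read it clear of background, and the same count holds for A_30_P01028865. Both were thus tested only through the positive group, where they were high, so the adjusted p is a description. The other members of the transcript differed by 2.72 ± 0.33 and 3.07 ± 0.21. Ccn1 itself differed by 2.71 ± 0.26, from 1.28 to 1.46 in positive and -1.74 to -0.79 in negative samples. Member minus neighbour was 0.02 to 0.37 for the 3 members, with SE of 0.34 to 0.40. A further probe of the array for the same 60 bases as A_30_P01028865, named LOC100216343 there, differed by 2.89 ± 0.17.

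Downstream of Arhgef3, which encodes an exchange factor for small GTPases, a transcript on the opposite strand (chr14:28218945-28241903, reverse) was higher together with the gene. A_30_P01021805 read -2.02, -2.19 and -2.10 in positive and -4.33, -3.69 and -3.87 in negative samples, a difference of 1.86 ± 0.19 (limma adjusted p = 0.0030). Its positive samples lay close together and above all negative ones. The member beside it, A_30_P01020693, was not well above background in any negative sample and was at least 3.21-fold higher, where this bound sets the positive mean against the detection limit of each negative array or the probe's own signal, whichever is higher; the limit is the dimmest probe that the scanner software counts as clear of background. Members with such a bound were tested only through the group in which they were high, so an adjusted p printed beside one is a description and supports nothing. The same holds for any other member tested only through the group in which it was high. The call of A_30_P01020693 was lost without positive replicate 3, without negative replicate 2 and without negative replicate 3. It was also lost in the authors' series matrix, with no filter on background and after normexp with quantile normalization. Arhgef3 differed by 2.33 ± 0.20.

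On the strand of Sall1, 3 members 2603 to 2723 bp downstream of its probe (chr8:91471819-91551119, reverse) were higher. Sall1 encodes a zinc-finger transcription factor of limb development. A_30_P01025820 read -0.70, -0.07 and -0.06 in positive and -2.51, -1.72 and -1.78 in negative samples, a difference of 1.72 ± 0.29 (limma adjusted p = 0.012). The other two differed by 1.70 ± 0.34 and 1.72 ± 0.37, and Sall1 by 1.52 ± 0.24. The calls were lost without positive replicate 3, among others. On the opposite strand at the same place, 1 of 4 members was tested, and it differed by 0.15 ± 0.40 (adjusted p = 0.82).

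A member with a large bound lay on the strand opposite to Pura, which encodes a nucleic-acid binding protein. A_30_P01018115 read -2.47, -3.95 and -2.98 in positive and -6.81, -6.31 and -6.14 in negative samples, where it was not well above background. It was at least 3.81-fold higher (limma adjusted p = 0.0048, tested through the positive group alone), while Pura differed by 0.71 ± 0.41 (adjusted p = 0.27). It was the 1 tested member of the 10 on that transcript.

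Other high members had a neighbour whose own difference was small. Ensa encodes an inhibitor of the phosphatase PP2A. A_30_P01029419, 9507 bp downstream of its probe on the opposite strand, read -2.59, -2.46 and -2.56 in positive and -5.17, -4.73 and -5.11 in negative samples, at least 4.78-fold higher (limma adjusted p = 0.00078, tested through the positive group alone). Ensa read 1.21 to 1.37 in positive and 1.0 to 1.43 in negative samples, so its groups overlapped, with a difference of 0.03 ± 0.16. A_30_P01031882 near Naa16, a subunit of an N-terminal acetyltransferase, was higher by 2.31 ± 0.38 beside a gene at -0.38 ± 0.22. Of the negative arrays, 1 read it clear of background, so it was tested through the positive group alone. The other tested member of its transcript, A_30_P01024394, differed by 0.23 ± 0.42 (limma adjusted p = 0.74). A_30_P01018735 near Fbrs was higher by 2.13 ± 0.48 beside a gene at -0.08 ± 0.25, and the other tested member of its transcript by 0.73 ± 0.17. Of the negative arrays, 2 read A_30_P01018735 clear of background, so it too was tested through the positive group alone. The call of A_30_P01018735 was lost without positive replicate 3, without each negative replicate in turn, in the authors' series matrix and after normexp with quantile normalization, and member minus neighbour did not pass (limma adjusted p = 0.088).

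Among the members lower in Sox9-EGFP positive cells were those near Tex15, Spry1, Pcyt1b, Cep135 and Slc7a5. A_30_P01031396, upstream of Tex15, a gene of male germ cells, read -4.76, -5.29 and -5.38 in positive and -3.11, -2.28 and -2.96 in negative samples. It was not well above background in positive samples and was at least 2.92-fold lower (limma adjusted p = 0.0045, tested through the negative group alone). The Tex15 probe itself stayed at background on all 6 arrays.

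Spry1 encodes an antagonist of receptor tyrosine kinase signalling that is induced by FGF. It was lower by 2.80 ± 0.24, from 3.07 to 3.35 in negative to -0.11 to 0.69 in positive samples. The transcript downstream on its strand (chr3:37543528-37546874, forward) gave unequal readings from neighbouring probes. A_30_P01029712, at 3271 bp, read -4.88, -4.57 and -5.48 in positive and -3.17, -2.57 and -2.60 in negative samples and was at least 2.73-fold lower (limma adjusted p = 0.0061, tested through the negative group alone). A_30_P01018212, at 3331 bp, differed by -0.39 ± 0.31 (adjusted p = 0.42), with overlapping groups. Its difference lay 2.41 ± 0.24 above that of Spry1 (limma on member minus neighbour, adjusted p = 0.0048). The third probe, at 3211 bp, was not tested, since no positive and 2 negative arrays were well above background.

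Slc7a5 encodes a transporter of large neutral amino acids. On its strand downstream (chr8:124355710-124401160, reverse), 3 of 4 tested members were lower. A_30_P01025936 differed by -1.22 ± 0.30, and A_30_P01028489, not well above background in any positive sample, was at least 1.40-fold lower. The other tested member, A_30_P01019687, differed by -0.80 ± 0.37 (limma adjusted p = 0.18), and Slc7a5 was lower by 1.82 ± 0.25. A_30_P01027500 read -3.96, -3.96 and -3.70 in positive and -2.10, -2.12 and -2.25 in negative samples (difference -1.72 ± 0.13, limma adjusted p = 0.0013). Its groups were tight and separate. Of the 3 positive arrays, 2 read it clear of background, and the same count holds for A_30_P01025936. Both were thus tested only through the negative group, where they were high, so the adjusted p is a description.

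The 2 members near Cep135, a centrosome protein, were lower beside a gene that read much the same in both groups. A_30_P01021663 read -1.40, -1.50 and -1.47 in positive and 0.45, 0.21 and 0.51 in negative samples, a difference of -1.85 ± 0.14 (limma adjusted p = 0.0012), and A_30_P01030682 differed by -1.93 ± 0.16. A_30_P01030682 was clear of background on 2 of the 3 positive arrays, so it was tested through the negative group alone. Cep135 differed by -0.12 ± 0.14 with overlapping groups. Another array probe in the same region and on the same strand, named A730089K16Rik, differed by -1.93 ± 0.16. Members and the gene differed from each other by 1.72 to 1.80 on the log2 scale (adjusted p = 0.013 for both).

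A_30_P01022594 lies between Pcyt1b, an enzyme of phosphatidylcholine synthesis, and Pdk3, a pyruvate dehydrogenase kinase. It read -0.32, -0.67 and -0.65 in positive and 1.34, 1.44 and 1.47 in negative samples (difference -1.96 ± 0.15, limma adjusted p = 0.0012). It was the 1 called of 8 tested members on that transcript, whose differences reached up to 0.41. Pcyt1b differed by -0.97 ± 0.41 (adjusted p = 0.15) and Pdk3, on the strand of the member, by -0.36 ± 0.13 (adjusted p = 0.11).

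Members whose difference opposed that of a called neighbour were few. Both were tested for 1172 members, and both were called for 49: 34 in the same direction (69.4%) and 15 in opposite directions. Among lincRNA probes over 10 kb away, 116 pairs had both called and 81 were in the same direction (69.8%). The difference between these shares was not tested. Under quantile normalization there were 29 pairs in the same and 4 in opposite directions.

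The 34 pairs read 20 transcripts near 16 genes. Among the genes higher together with their members were Ccn1, Arhgef3, Sall1, Zbtb20, a zinc-finger transcription factor, Tnrc18 and AU041133. Lower together were Spry1, Slc7a5, Nab1, a corepressor of Egr factors, Nop58, a protein of box C/D snoRNPs, Dnajc15, a mitochondrial cochaperone, Mrpl33, a mitochondrial ribosomal protein, Smim13, 2210016F16Rik and 9430038I01Rik. In Tnrc18, 4 called members on its strand differed by 1.0 to 1.24 and the gene by 1.03 ± 0.18. A further tested member on that strand, of an overlapping region, differed by -0.64 and did not pass. The 2 tested members on the opposite strand did not pass either. In Nab1, 3 members 806 to 950 bp downstream differed by -1.06 to -0.92 and the gene by -1.16 ± 0.20, while a tested member of an overlapping transcript did not pass. By strand, 28 of the 38 pairs on the same strand and 6 of the 11 pairs on opposite strands went the same way. By distance, 10 of 11 did so up to 1000 bp, 5 of 8 from 1000 to 2500 bp, 12 of 13 from 2500 to 5000 bp and 7 of 17 beyond 5000 bp. Of the nearest pairs, A_30_P01017548 and A_30_P01028944 near 9430038I01Rik and A_30_P01018579 near Tnrc18 lie at 0 bp on the same strand. They overlap the neighbour's own probe, so their agreement is not a separate observation. Of all members, 48 lie at 0 bp.

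The 15 opposed pairs read 9 transcripts, among them those near Pou3f1, Pdss1, Nol10, Ppm1b, Nudt3, Hgh1, Mfsd5 and Pelp1. Near each of these genes the member was higher and the gene lower in positive cells. Pou3f1 encodes a POU-domain transcription factor. A_30_P01029459, 7746 bp upstream of its probe on its strand, read -2.80, -2.90 and -2.74 in positive and -3.80, -3.89 and -4.06 in negative samples, a difference of 1.11 ± 0.13 (limma adjusted p = 0.0045). Pou3f1 read -3.13, -3.46 and -2.69 against -1.62, -1.56 and -1.33, a difference of -1.59 ± 0.22. Of the 3 positive arrays, 2 read the member clear of background, and 2 read Pou3f1 so. Member minus neighbour was 2.70 ± 0.29 (adjusted p = 0.0062). The other tested member of that transcript, A_30_P01025799, at 3505 bp, differed by -0.05 ± 0.25 (limma adjusted p = 0.91), so the opposed call rests on 1 of 2 tested probes.

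Pdss1 makes the side chain of coenzyme Q. A transcript on the opposite strand (chr2:22782700-22801900, reverse) had 2 called members upstream of the Pdss1 probe, at 1.03 ± 0.17 and 0.74 ± 0.15. The gene was at -1.08 ± 0.14. The Abi1 probe, also within 10 kb, lies in that region on the strand of these members and upstream of both. Abi1 differed by 0.02 ± 0.16. Whether the members read an end of Abi1 was not tested. Nol10, a nucleolar protein, was at -0.90 ± 0.17 and its member at 0.96 ± 0.21. Smaller opposed differences were seen near Ppm1b (0.82 against -0.57), Nudt3 (0.80 against -0.59) and Hgh1 (0.76 against -1.14). The member was 1 called of 5 tested on its transcript near Ppm1b, where differences ranged from -0.09 to 0.82, and 1 of 4 near Nudt3, where they ranged from 0.27 to 0.80. Near Hgh1, 2 of 3 were called. Of the 3 positive arrays, 2 read A_30_P01031339 near Pdss1 (at 1.03) clear of background. The same count holds for the called member near Ppm1b and for the Nol10 probe. After normexp and quantile normalization together, the calls of the members near Pou3f1, Pdss1, Nol10, Ppm1b and Nudt3 were lost, and those near Pdss1, Ppm1b and Nudt3 were also lost after quantile normalization alone. Without positive replicate 3, and likewise without negative replicate 3, the calls near Nol10, Ppm1b, Nudt3 and Hgh1 and that of A_30_P01028775 near Pdss1 were lost.

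Across the 1172 pairs, the differences of member and neighbour correlated with Pearson's r = 0.35 and a Spearman rank correlation of 0.22. For 2614 pairs over 10 kb apart, r was 0.15. Pairs share the arrays, and pairs of 1 transcript share both targets, so these values are descriptions. The direct test of member minus neighbour called 36 of the 1172 pairs (3.07%), against 5.97% of all 3786 lincRNA pairs at any distance. In 27 the member's difference lay above the neighbour's (2.3%, against 3.67% of all lincRNA pairs) and in 9 below it (0.768%, against 2.3%). With the slide as a block, 99 pairs passed. Of the 36, 3 were lost under no more than 1 alternative, among them A_30_P01029459 near Pou3f1 and A_30_P01018212 near Spry1.

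Lmx1b had called members beside it but was not called itself. It encodes the LIM-homeodomain factor of dorsal limb identity. All 6 members on the opposite strand upstream, in 2 overlapping transcripts (chr2:33496712-33501183 and chr2:33500594-33501874, forward), were lower, by 1.26 to 1.46 on the log2 scale. The calls of 5 of the 6 were lost without positive replicate 3 and without negative replicate 1, and that of A_30_P01026417 was lost under 1 alternative, that with no filter on background. A_30_P01026417 read 4.19, 4.35 and 4.01 in positive and 5.77, 5.55 and 5.16 in negative samples (difference -1.31 ± 0.20, limma adjusted p = 0.0088). Its groups did not overlap, and within the 3 slides it was lower by 0.82 to 1.76. Lmx1b differed by -0.92 ± 0.27 (adjusted p = 0.058), and member minus neighbour by -0.54 to -0.34, with SE of 0.34 to 0.55. A further array probe in the same place and strand, with a transcript identifier and no gene name, differed by -1.32 ± 0.23.

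Neighbours from a list of 158 limb patterning and skeletal regulators were few. In all, 8 were the neighbour of 45 members in 13 transcripts, among them Dusp6, Irx2, Lmx1b, Sall1, Six2, Spry1 and Spry4. Of these members, 28 were tested, 4 were higher and 10 lower (50%, against 21.6% of all tested probes and 13% of tested members), in 6 transcripts, with calls near Sall1, Lmx1b and Spry1 among others. Their median difference was 0.04, against 0.10 over tested members. Transcription factor families taken by symbol stem gave 18 neighbour genes with 92 members, of which 36 were tested, 8 higher and 9 lower (47.2%, against the same 21.6% and 13%). Besides Sall1, Lmx1b and Pou3f1, this list has Zfhx2, a zinc-finger homeobox gene with 3 members higher by 0.81 to 0.92. Members near Foxd2, Foxd3, Foxl1, Hoxb4 and Hoxb5 were not tested, since their signals were not above background in any whole group. The lists were made with earlier results of these data known, and many of these members share a transcript.

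Both strands of 78 regions had tested members. In 56 regions neither strand was called, in 19 regions 1 strand was, and in 3 both were. Of the 3, 2 had calls in the same direction, as near Pura. There 1 of 5 tested forward members was called, and their differences ranged from -0.62 to 0.71. The call on the reverse strand is that of A_30_P01018115, which was tested through the positive group alone. Mean differences of the 2 strands correlated with r = 0.29 over the 78 regions. Near Fcgr1, an Fc receptor gene, the forward member A_30_P01022407 printed above was lower by 1.06 on the log2 scale (limma adjusted p = 0.022). It was well above background on 5 of the 6 arrays. Its reverse complement, A_30_P01022918, was not well above background on any of the 6 arrays.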

How the data were processed

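RNA of 6 sorted samples was labelled with Cy3 and hybridised to 1-colour Agilent arrays of 62976 spots. Per the file headers, Agilent Feature Extraction 10.7.3.1 corrected background and spatial trends within each array, and its processed signal is the intensity the authors deposited. The authors' deposited series matrix holds log2 values with equal medians (6.44 or 6.45), and the sources used here do not state their background correction. Probe positions are those of the files (mm9).

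Here the log2 processed signal minus the array's 75th percentile was used, with replicate spots averaged and outlier spots left out. Probes were tested where all 3 arrays of a group were well above background (26473 probes), with limma 3.58.1 in R 4.3.3 and Benjamini-Hochberg adjustment over all of them at 0.05. A second limma fit used member minus neighbour per array. Scripts were tested on simulated data. Each of 3 slides held 1 array of each group. Replicate numbers do not pair the samples. The labels do not say that samples came from separate litters, so p-values measure the spread between these samples. The number of arrays limits precision.

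Members, lists and the rule for named members were chosen with earlier results of these data known. Named are the 10 members with the largest difference in each direction, up to 10 opposed to a called neighbour, up to 10 beside an uncalled one, 6 from the pair test, those near listed limb genes and 6 regions read on both strands. Some results are not reported here. Genes listed for pairs with both called are all others, and probes that share a region with a member were added after values were seen. Alternatives were other scalings, filters, thresholds, distances, blocks, array weights and leaving out each array. No mm9 genome was used, so exons and introns are not given.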

Additional observations from a re-analysis of the deposited data

Results flagged for a closer look

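Outside the comparisons above are 118 lincRNA probes whose position the files do not give, so that no neighbour could be found. Of these, 43 were tested, and 7 were called higher and 4 lower by limma, in 6 transcripts. The 7 include 3 forward probes and 1 reverse probe of the region chr3:87757295-87774970, with differences from 0.57 to 0.74. The largest difference among the 7 was 1.40 ± 0.30 (SE; limma adjusted p = 0.023), for A_30_P01030439.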

How the results depend on the processing

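The alternatives changed how many members and pairs passed. Of the 38 named members that were called, none reversed under an alternative in which it was tested. The groups of a called member do not overlap, so leaving out an array, weights, filters, moderation and blocks could not reverse its sign. Other scalings and background correction could have done so, and these changed the split of calls between higher and lower. Counts are given in the order members higher, members lower, pairs in the same direction, pairs in opposite directions and pairs that differ by the direct test, which were 105, 62, 34, 15 and 36. Normexp and quantile normalization gave 39 higher, 5 opposed and 60 differing, quantile normalization 41 higher and 4 opposed, and the series matrix 37 higher, 5 opposed and 61 differing. With no filter on background they were 23, 7, 8, 0 and 5, where 35 opposed pairs had both unadjusted limma p under 0.05. Probes above background on all 6 arrays gave 39 lower and 9 opposed. Array weights gave 199, 114, 94, 39 and 171, and a threshold of 0.01 gave 13, 15, 7, 1 and 5. A difference of at least 2-fold left 39 higher, 32 lower, 20 and 5, and a limit of 5 kb left 58, 41, 5 opposed and 16. The slide block gave 99 differing pairs. The replicate block gave 14, 11, 6, 1 and 0, with 179 pairs at an unadjusted limma p under 0.05. Replicate numbers do not pair the samples (same-number deviations correlated at -0.27, -0.46 and 0.29), so calls lost under it are not read as weaker effects. Deviations of the 2 arrays of a slide correlated at 0.24, 0.56 and 0.41. The main fit does not model the slide, and the slide block does.

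Leaving out 1 array gave 24 to 130 higher, 17 to 79 lower, 9 to 56 in the same direction, 2 to 14 opposed and 3 to 58 differing. Members higher or lower numbered 24 and 17 without negative replicate 1, 44 and 27 without negative replicate 2, 29 and 22 without negative replicate 3, 64 and 28 without positive replicate 2, and 24 and 21 without positive replicate 3. Of the 167 calls, 40 were shared without negative replicate 1 and 140 without positive replicate 1. The cause was not tested, beyond the fewer arrays. Signals near background limit most members, since 2138 of 3420 were not tested.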
